A study of Saccharomyces cerevisiae with 6 samples.

Results

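The genes described here encode the enzymes of lower glycolysis, the stretch of the pathway from the triose phosphates to pyruvate. The members are the 10 genes TPI1, TDH1, TDH2, TDH3, PGK1, GPM1, ENO1, ENO2, CDC19 and PYK2, chosen by name as the isoforms of these steps. Of them, 9 have a probe set that the array annotation assigns to a single gene, among 5449 Saccharomyces cerevisiae genes on 5498 such probe sets. TDH2 has none in that annotation and was not analysed here. RNA came from a pair of wine yeast strains. P5-EM is an evolved strain, isolated from a mixed culture of commercial wine yeasts that was first treated with the mutagen ethyl methanesulfonate and then grown in serial batches at 12 °C over 200 generations, and P5 is its parental commercial strain. Both grew at 12 °C in SM1, a synthetic grape must, and were sampled in exponential growth from 3 independent cultures per strain. P5-EM is a single evolved strain, so its 3 cultures replicate that strain and not the evolution experiment. Both strains were sampled at a single time, so the strain and the stage of fermentation cannot be told apart.

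In lower glycolysis each triose phosphate is oxidised, passes through a chain of phosphoglycerates and yields pyruvate, and ATP is made at the phosphoglycerate kinase and pyruvate kinase steps. In yeast several of these steps are shared by isoforms. Glyceraldehyde-3-phosphate dehydrogenase is encoded by TDH1, TDH2 and TDH3, enolase by ENO1 and ENO2, and pyruvate kinase by CDC19 and PYK2. CDC19 encodes the main pyruvate kinase, which is activated by fructose 1,6-bisphosphate. PYK2 encodes a second pyruvate kinase that is insensitive to this activator, and its gene is known to be repressed by glucose. Most genes of the pathway are among the most strongly transcribed in fermenting cells, under the activators Gcr1 and Rap1.

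The level of a gene is given below as the log2 of its normalized hybridisation signal on 1 of 6 Affymetrix arrays, averaged over a culture, so that a change in every cell and a change in the share of cells that express a gene cannot be told apart. Signals of different probe sets depend on their probes and were not ranked as levels of expression. All 9 measured members lay far above background on every array: the lowest distance of any member from the 95th percentile of the Schizosaccharomyces pombe probe sets, whose genes these cells lack, was 6.70 on the log2 scale. Across all tested probe sets, the arrays of P5-EM replicates 2 and 3 correlated at r = 0.9903, and the P5 arrays with each other at r from 0.9918 to 0.9963. P5-EM replicate 1 stood apart, at r = 0.9673 and 0.9532 with the other P5-EM arrays, and the members' values are therefore also given without it where it matters. P5-EM replicates 2 and 3 were closer to the P5 arrays than to P5-EM replicate 1. Their r with the P5 arrays ran from 0.9680 to 0.9696 for replicate 2 and from 0.9715 to 0.9761 for replicate 3. The difference between 3′ and 5′ probe sets of 8 control transcripts differed between P5-EM and P5 by -0.28 to 0.16, with a median of -0.04. The strain labels could not be checked from expression, since no gene was deleted in either strain.

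PYK2 rose in P5-EM, by 0.93 on the log2 scale or 1.90-fold, and it was the only member that passed the test. The other 8 measured members, CDC19 among them, had log2 fold changes between -0.01 and 0.20 and did not pass. At an unadjusted p under 0.05, limma counted PYK2 alone among the 9 (34.4% of all tested probe sets), 4 of the 9 with an intensity trend (34.9% of all) and 7 of the 9 with array weights (63% of all). The pyruvate kinase step thus held both the largest difference among the members and one of the smaller ones. Of the 9 measured members 1 was higher, 0 were lower and 8 did not pass, beside a background of 6.09% of tested probe sets higher in P5-EM and 7.78% lower (13.9% in either direction, limma with Benjamini-Hochberg adjusted p of 0.05 or less over 5498 probe sets). The median log2 fold change was 0.12 over the 9 members and -0.04 over all tested probe sets.

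PYK2 had log2 levels of 10.26, 9.91 and 9.92 on the P5-EM arrays, against 9.18, 9.11 and 9.02 on the P5 arrays. Every P5-EM array lay above every P5 array, with a gap of 0.73 between the nearest arrays of the strains, and P5-EM replicate 1 was the highest. The means were 10.03 ± 0.20 in P5-EM and 9.10 ± 0.08 in P5 (SD, n = 3 each), a difference of 0.93 with an SE of 0.14 and a 95% interval from 0.60 to 1.25 (limma, adjusted p = 0.0135). Without P5-EM replicate 1, the array that stood apart, the difference was 0.81 and passed (limma, adjusted p = 0.00238). The call ended without P5 replicate 1, 2 or 3 (adjusted p = 0.0517, 0.0771 and 0.0921, limma) and without P5-EM replicate 2 (0.0537), while the difference stayed between 0.88 and 0.98 in these fits. The change did not reach 2-fold, and PYK2 is therefore not among the 3.93% of probe sets that both passed and changed at least that much.

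CDC19 had log2 levels of 12.47, 12.47 and 12.39 in P5-EM, against 12.37, 12.24 and 12.39 in P5. The arrays of the strains nearly touched, the lowest P5-EM array exceeding the highest P5 array by 0.0038. The difference in means was 0.11 with a 95% interval from -0.14 to 0.37 (limma, adjusted p = 0.473). To set the isoforms against each other, the log2 signal of one was subtracted from that of the other on each array, and the differences were compared between the strains. PYK2 minus CDC19 was -2.22, -2.56 and -2.47 in P5-EM, against -3.19, -3.13 and -3.37 in P5. The signal of PYK2 relative to CDC19 was thus higher on all P5-EM arrays than on any P5 array, by 0.81 in the mean or 1.76-fold (-2.42 ± 0.18 in P5-EM and -3.23 ± 0.13 in P5, SD, n = 3 each; two-sided exact permutation test, p = 0.1, and 0.15 adjusted over the 3 isoform pairs). With 3 arrays against 3 this test cannot go below 0.1, so no isoform pair could pass it. The size of a within-array difference reflects the probes as well as the RNA, and only its change between strains is read here.

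**Figure D1:**
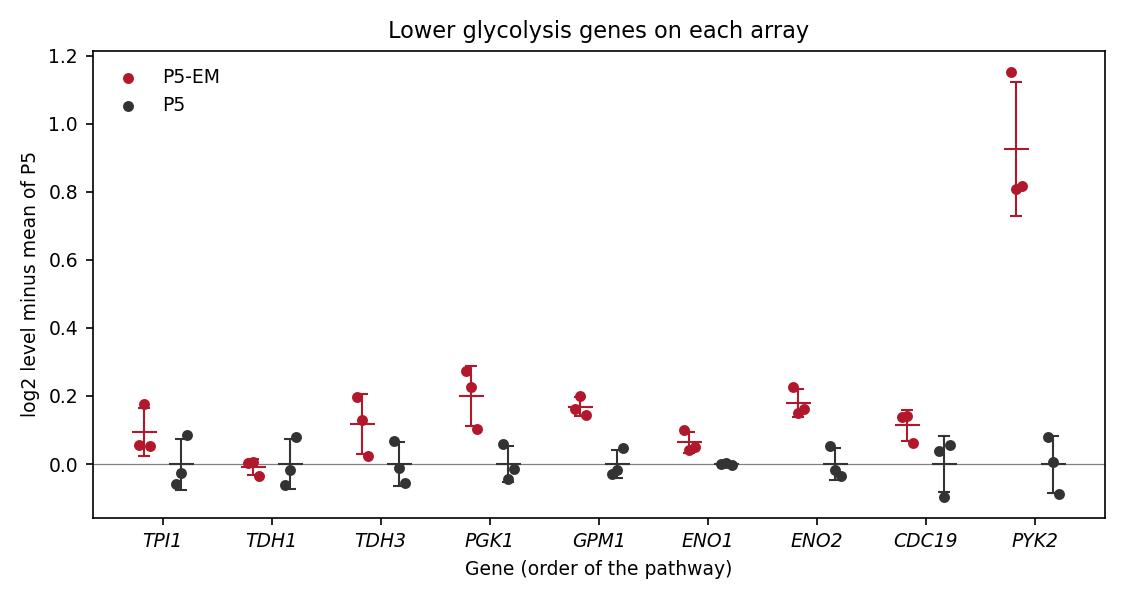
Log2 level of each measured member on each array minus the gene's mean in P5 (y axis), for P5-EM (red, left of each pair) and P5 (black, right), 3 arrays each in replicate order, with the mean as a bar and the SD as whiskers. PYK2 stands 0.93 above its P5 mean, and the means of the other 8 genes lie between -0.01 and 0.20.

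Enolase turns 2-phosphoglycerate into phosphoenolpyruvate. In laboratory yeast ENO2 is the isoform induced by glucose, and ENO1 is expressed more evenly across carbon sources. ENO2 had log2 levels of 13.07, 12.99 and 13.00 in P5-EM, against 12.89, 12.82 and 12.81 in P5. ENO1 had 12.85, 12.79 and 12.79 in P5-EM, against 12.75, 12.75 and 12.74 in P5. Both genes had all P5-EM arrays above all P5 arrays, but the differences were small, at 0.18 for ENO2 and 0.06 for ENO1, and neither passed (limma, adjusted p = 0.251 and 0.672). The 3 P5 arrays of ENO1 had an SD of only 0.0029. ENO1 minus ENO2 was -0.22, -0.20 and -0.21 in P5-EM, against -0.15, -0.08 and -0.06 in P5. ENO1 was thus lower relative to ENO2 on every P5-EM array than on any P5 array, by 0.12 in the mean (-0.21 ± 0.01 in P5-EM and -0.10 ± 0.05 in P5, SD, n = 3 each; two-sided exact permutation test, p = 0.1, and 0.15 adjusted over the 3 pairs).

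Glyceraldehyde-3-phosphate dehydrogenase catalyses the oxidative step of glycolysis, in which NADH is formed. TDH3 is the main isoform in growing laboratory cells, and TDH1 is the one tied to slow growth and stationary phase. TDH1 had log2 levels of 12.87, 12.87 and 12.83 in P5-EM, against 12.80, 12.85 and 12.94 in P5. TDH3 had 12.33, 12.26 and 12.16 in P5-EM, against 12.20, 12.12 and 12.08 in P5. The strains overlapped for both genes. The differences were -0.01 for TDH1, with a 95% interval from -0.25 to 0.24, and 0.12 for TDH3, from -0.14 to 0.38 (limma, adjusted p = 0.964 and 0.468). TDH1 minus TDH3 averaged 0.60 ± 0.07 in P5-EM and 0.73 ± 0.13 in P5 (SD, n = 3 each), with overlapping arrays (difference -0.13; two-sided exact permutation test, p = 0.3, and 0.3 adjusted over the 3 pairs). The array also carries 4 control probe sets whose identifiers name TDH1, directed at its 3′ end, its middle and its 5′ end. Their log2 levels lay between 12.30 and 13.01 on all arrays, and their differences between P5-EM and P5 ran from -0.02 to 0.06, around the value of the gene's own probe set. The 2 pairs that involve TDH2 could not be computed. The TDH genes resemble each other closely, as do ENO1 and ENO2, and how far a probe set of one also binds the RNA of its copies, TDH2 included, was not tested.

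**Figure D2:**
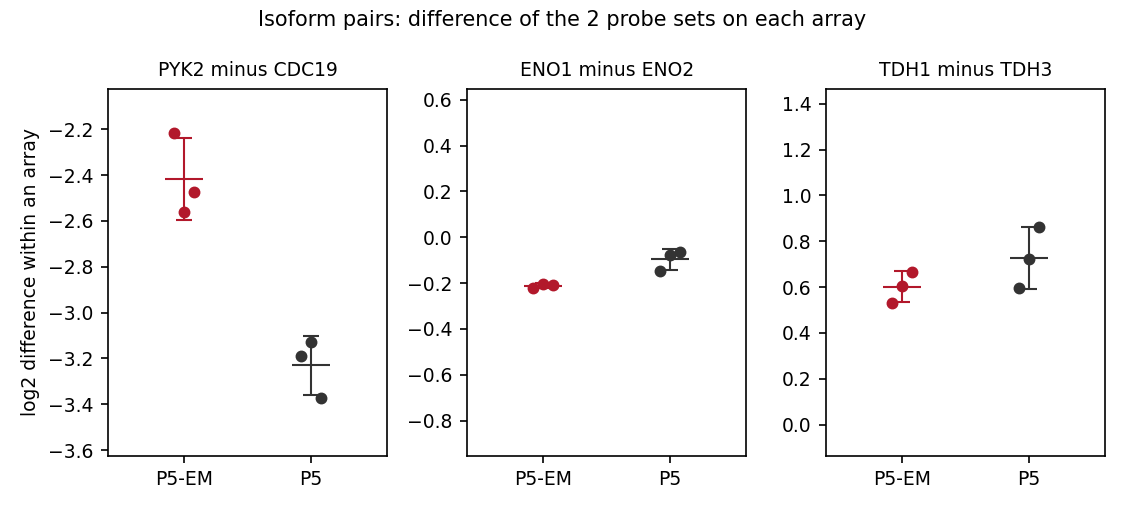
Log2 signal of one isoform minus that of the other on each array (y axis, the same span of 1.6 in all panels), for P5-EM (red, left) and P5 (black, right), with the mean as a bar and the SD as whiskers. PYK2 minus CDC19 is 0.81 higher in P5-EM, while the other pairs differ by -0.12 and -0.13.

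The remaining steps are each carried by a single main gene. TPI1 encodes triosephosphate isomerase, which feeds dihydroxyacetone phosphate into lower glycolysis. It had log2 levels of 11.60, 11.72 and 11.60 in P5-EM, against 11.48, 11.52 and 11.63 in P5, and the strains overlapped (difference 0.09; limma, adjusted p = 0.557). PGK1 encodes phosphoglycerate kinase, the first step of the pathway that makes ATP, and its difference was the largest after PYK2. It had 12.58, 12.54 and 12.41 in P5-EM, against 12.37, 12.27 and 12.30 in P5, without overlap (difference 0.20, 95% interval from -0.06 to 0.46; limma, adjusted p = 0.228). GPM1 encodes phosphoglycerate mutase. It had 12.26, 12.30 and 12.24 in P5-EM, against 12.07, 12.08 and 12.14 in P5, also without overlap (difference 0.17, 95% interval from -0.07 to 0.41; limma, adjusted p = 0.271).

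Counted over the members, all P5-EM arrays lay above all P5 arrays for 6 of the 9 measured genes, namely PYK2, PGK1, GPM1, ENO1, ENO2 and CDC19, and below them for 0. The same separation was seen at 21.1% of all tested probe sets toward higher and 24.6% toward lower. It held for 5 members after quantile normalization, where ENO1 overlapped, and there 23.5% of probe sets separated toward higher. For CDC19 and ENO1 the separation was of 0.0038 and 0.04 on the log2 scale. The mean level of the 8 members other than PYK2 was 12.50, 12.49 and 12.43 on the P5-EM arrays, against 12.37, 12.33 and 12.38 on the P5 arrays. This mean was slightly higher on each P5-EM array, although TDH1, TDH3 and TPI1 overlapped between the strains and none of the 8 passed. The 95% intervals of their single differences (limma, not adjusted) reached no lower than -0.25 and no higher than 0.46.

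The members other than PYK2 lay at the top of the array's scale. By their mean signal they ranked between 2 and 106 among the 5498 tested probe sets, and 7 of the 8 had a mean log2 level of 12 or more, as 42 tested probe sets did. ENO2 was the brightest of all tested probe sets on all 3 P5-EM arrays. Of the control probe sets for 18S and 25S ribosomal RNA, 5 lay between 12.81 and 13.57. The highest value of any probe set was between 13.55 and 13.63 on each array, and its probe set was another control named for 25S ribosomal RNA. TDH1 and ENO2 lay within the range of those 5 controls on all P5-EM arrays, but not on every P5 array. ENO1 reached it only on P5-EM replicate 1. TPI1, TDH3, PGK1, GPM1 and CDC19 lay below it on every array. Differences between the strains were small at this end of the scale. Among the 42 probe sets at 12 or more, 7 of them members, the median size of the log2 fold change was 0.08, the largest was 0.31, and 0% were called. Over all tested probe sets the median size was 0.29. Of the 42 bright probe sets, 13 (31%) had all P5-EM arrays above all P5 arrays, beside 21.1% of all tested probe sets. Those 13 include 5 members, PGK1, GPM1, ENO1, ENO2 and CDC19. The values carry no flag for saturation, and the part of saturation in the small differences of the bright members was not tested. PYK2 ranked 1108 by its mean over the 6 arrays, which lay between 9 and 10 on the log2 scale, where 849 probe sets had a median size of the log2 fold change of 0.26 and 6.71% were called higher in P5-EM.

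**Figure D3:**
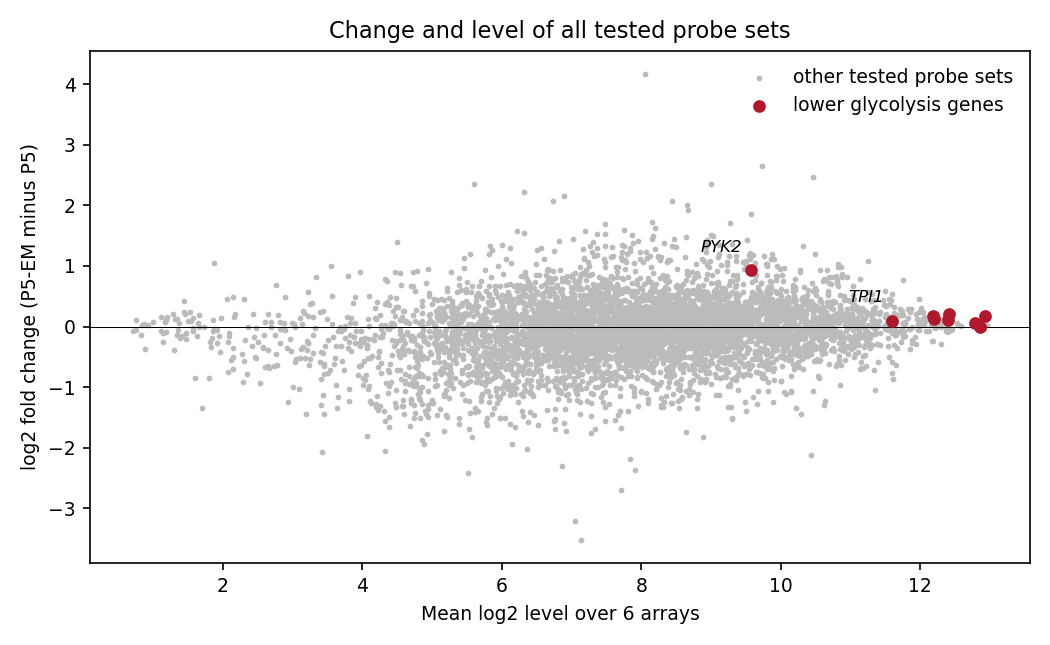
Log2 fold change of P5-EM over P5 (y axis) against the mean log2 level over 6 arrays (x axis) for the tested probe sets (grey), with the 9 measured members in red. The cloud narrows toward the right, where 8 members lie between -0.01 and 0.20, and PYK2 sits at 0.93 in the middle of the scale.

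Upper glycolysis carries hexoses to fructose 1,6-bisphosphate and splits it. Of its 8 genes, 0 were higher, 0 lower and 8 did not pass, with a median log2 fold change of 0.29 and values from 0.08 to 0.78. The largest was that of HXK2, whose P5-EM arrays spread widely, at 11.63, 11.11 and 10.29, and overlapped those of P5. Its highest value was on P5-EM replicate 1, the array that stood apart. All P5-EM arrays lay above all P5 arrays for 6 of the 8, beside 21.1% of all tested probe sets. At an unadjusted p under 0.05 the limma count was 4 of 8, beside 34.4% of all tested probe sets, and with array weights 6 passed, beside 58.6% of all. HXK1, which encodes a hexokinase, had levels of 12.14, 12.17 and 12.31 in P5-EM, against 11.87, 11.77 and 11.61 in P5 (difference 0.46; limma, adjusted p = 0.0515). EMI2, a paralog of the glucokinase gene, had a difference of 0.50 (adjusted p = 0.0728, limma). Both lay higher on every P5-EM array and missed the threshold. With array weights both passed (limma, adjusted p = 0.000567 for HXK1 and 0.000446 for EMI2). HXK1 also passed in limma with an intensity trend (adjusted p = 0.024), with median centring (0.0404) and without P5-EM replicate 1 (0.0232), where 26.6% of all tested probe sets passed. In the other alternatives neither passed, for example with a replicate block (0.132 and 0.0928, limma). Of the 5 minor paralogs of lower glycolysis, GPM3 and ERR3, relatives of the mutase and enolase genes, had differences of 0.20 and 0.33 (limma, adjusted p = 0.252 and 0.329), 0 of the 3 measured passed (0 at an unadjusted p under 0.05, 1 with array weights), and ERR1 and ERR2 were not measured.

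At the exit of the pathway pyruvate is decarboxylated and reduced to ethanol. Lower levels passed the test for 2 of the 4 genes of this branch and higher levels for 0, and the median was -0.41. Over all tested probe sets 7.78% passed as lower and 6.09% as higher. PDC5 and PDC6, minor pyruvate decarboxylase genes, fell. PDC6 had levels of 7.25, 7.52 and 8.16 in P5-EM, against 9.07, 9.04 and 8.80 in P5 (difference -1.33; limma, adjusted p = 0.0211), and PDC5 had 11.08, 11.20 and 11.37 in P5-EM, against 12.00, 11.95 and 12.00 in P5 (-0.77; 0.015). PDC1 and ADH1, the main pyruvate decarboxylase and alcohol dehydrogenase genes, differed by -0.01 and -0.04, and like most lower glycolysis genes they lay at the top of the scale. Without P5 replicate 1, 2 or 3 or P5-EM replicate 2 the calls of PDC5 and PDC6 ended (adjusted p from 0.0599 to 0.093, limma). In these fits, in that order, 2.55%, 0%, 0% and 1.8% of all tested probe sets passed.

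Of the 4 genes of gluconeogenesis, which runs the pathway backwards from pyruvate, PCK1 was lower and 3 did not pass (median 0.12), beside 7.78% of all tested probe sets lower. The other 3 had positive differences, up to 0.38, and for 2 of them all P5-EM arrays lay above all P5 arrays (21.1% of all). At an unadjusted p under 0.05 the limma count was 2 of 4 (34.4% of all), and with array weights 3 passed (58.6% of all). PCK1, for phosphoenolpyruvate carboxykinase, had 6.46, 6.40 and 6.24 in P5-EM, against 6.91, 6.94 and 6.86 in P5 (difference -0.54; limma, adjusted p = 0.0288). Its call ended after quantile normalization (-0.46, adjusted p = 0.0668, limma) and without P5 replicate 1, 2 or 3 or P5-EM replicate 2 (0.0862 to 0.121). In these fits, in that order, 18%, 2.55%, 0%, 0% and 1.8% of all tested probe sets passed. PYK2 was thus higher and PCK1 lower. CDC19 (0.11), PYC1 (0.22), PYC2 (0.38) and FBP1 (0.03) had positive differences that did not pass. In the glycerol branch 0 of 4 genes passed in limma, with or without adjustment or array weights (median 0.02), GPP1 and GPP2 having differences of 0.16 and -0.21.

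Of the 4 regulators, 0 passed in limma, and the median was -0.26. The count was 2 at an unadjusted p under 0.05 (34.4% of all tested probe sets), 2 after quantile normalization (GCR1 and TYE7, adjusted p = 0.0426 and 0.0491, limma; 18% of all) and 3 with array weights (58.6% of all). TYE7, a transcription factor that activates glycolysis genes, had levels of 6.80, 7.84 and 8.46 in P5-EM, against 9.10, 8.83 and 8.89 in P5 (difference -1.24; limma, adjusted p = 0.0772). All P5-EM arrays lay below all P5 arrays, but they spread widely, and the array that stood apart was the lowest. Without it the difference was -0.79 and passed (adjusted p = 0.0187, limma), as did the difference of -1.62 without P5-EM replicate 3 (0.0232). Of all tested probe sets 26.6% passed without P5-EM replicate 1 and 18.3% without P5-EM replicate 3. GCR1, the main activator of glycolysis genes, had 8.58, 8.75 and 9.001 in P5-EM, against 8.39, 8.15 and 8.20 in P5 (difference 0.53; limma, adjusted p = 0.0571), and 0.63 without P5-EM replicate 1, where it passed (0.0116).

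**Figure D4:**
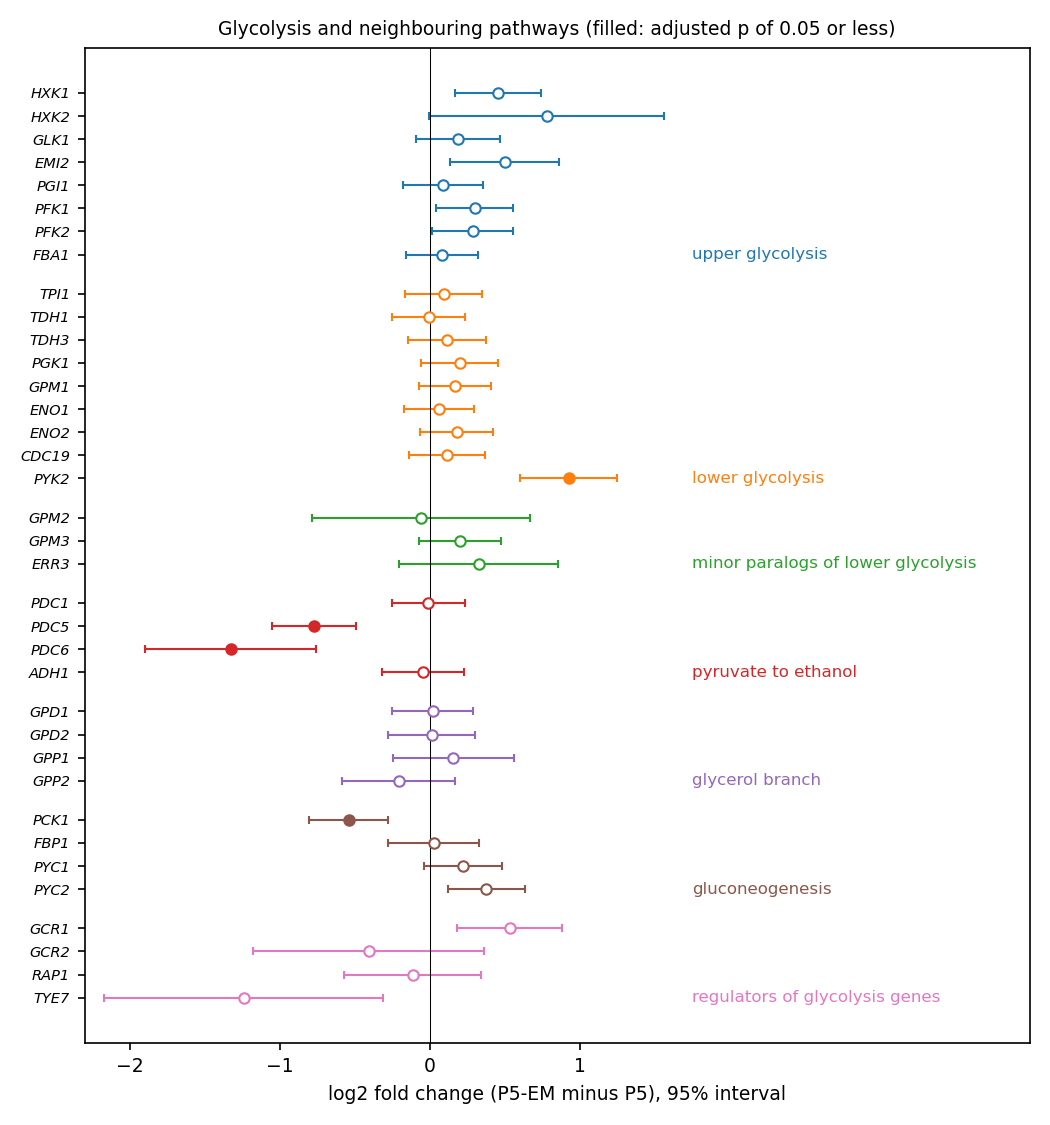
Log2 fold change of P5-EM over P5 (x axis) with its unadjusted 95% interval for the measured members and the genes of the neighbouring lists (y axis, coloured by list). Filled points passed limma at an adjusted p of 0.05 or less: PYK2 at 0.93, PDC5 at -0.77, PDC6 at -1.33 and PCK1 at -0.54.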

How the data were processed

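Scanned arrays were read out in GCOS, and the authors derived the deposited log2 expression estimates, 1 per probe set and array, by RMA in Partek (background correction, normalization between arrays, summary of probes), without pooling replicates. Per the labels, 25 ng of RNA was amplified over 17 cycles first, a step that can alter relative signals. The values were used as deposited. Tests covered 5498 probe sets annotated to exactly 1 gene of S. cerevisiae; 1747 S. pombe, 213 control and 3470 unlisted probe sets were not. A gene was read from its brightest probe set. Strain differences, P5-EM minus P5, came from limma 3.58.1 in R 4.3.3 (lmFit and eBayes without covariates) with Benjamini-Hochberg adjustment, and isoform differences by exact permutation (scipy 1.17.1). Limma was tested on simulated data.

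Named genes were the members, the genes of each list that passed or otherwise the 2 with the lowest adjusted p, and the genes most similar to the members. PDC1, ADH1, HXK2, PYC1, PYC2 and FBP1 were named after their values were seen. The members, lists and tests were chosen with earlier results of these data known. Alternatives were other tests, normalizations, filters and probe set choices, a replicate block and fits that omit 1 array each. Depth does not apply to arrays, and 3 per strain limit the precision. No sequences were used here.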

Additional observations from a re-analysis of the deposited data

How the results depend on the processing

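PYK2 was higher in P5-EM under all 16 alternatives that gave it an adjusted p, by 0.81 to 0.98 on the log2 scale, and passed in 11 of them. The methods' t-test adjusted among 2-fold changes left PYK2 out, since its change was below 2-fold, and it was not called there. It lost its call in the methods' t-test adjusted over all tested probe sets (adjusted p = 0.0514), as PDC6 did (0.0844), and in 4 of the 6 fits without an array. The count of members called, 1, became 4 with array weights (PGK1, GPM1 and ENO2 besides PYK2, in a weight estimation that stopped before its convergence tolerance), 0 in the methods' t-test by either adjustment, no member having reached 2-fold and 5 of 9 having an unadjusted p under 0.05 (28.6% of all tested probe sets), and 0 to 1 without single arrays. The 763 probe sets called became 3222 with array weights, 190 by the methods' t-test when adjusting among 2-fold changes and 163 when adjusting among all, and 0 to 1462 without single arrays: 1462 and 99 without P5-EM replicates 1 and 2, 140 without P5 replicate 1, and 0 without P5 replicate 2 or 3, where 1318 and 1222 had an unadjusted p under 0.05. P5-EM and P5 cultures share replicate numbers. Same-numbered arrays did not deviate together (r = -0.03, -0.28 and -0.02 for numbers 1, 2 and 3), and arrays of unlike number gave r from -0.11 to 0.24. With 3 arrays per strain these values cannot show whether the cultures were run as pairs, and the main fit did not pair them. With a replicate block 208 probe sets were called, and PYK2 passed (adjusted p = 0.046), while the calls of PDC5 (0.0549), PDC6 (0.0588), PCK1 (0.0846), SCO1 (0.0511), LYS12 (0.0585), PCL6 (0.0763) and ZRC1 (0.0665) ended. The members' median stayed within the spread between replicates and the 3 isoform contrasts kept their sign throughout. TDH1, near 0, changed sign with median centring (0.0010) and ran from -0.039 to 0.032 without single arrays, being positive without P5 replicate 3 or P5-EM replicate 3 (0.0051). GPP1 ran from -0.0079 without P5-EM replicate 1 to 0.27 without P5-EM replicate 3. After quantile normalization the calls split into 494 higher and 494 lower. The cause of these shifts was not tested. The number of members without overlap, examined after seeing the data, ran from 5 to 7.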

Other observations

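Among genes outside the members, those whose log2 levels followed the mean of the 9 measured members most closely over the 6 arrays were PER1 of GPI anchor remodelling (Pearson r = 0.997), SCO1 of cytochrome c oxidase assembly (0.996), LYS12 of lysine synthesis (0.995), the open reading frame YAL065C (0.994) and PCL6, a cyclin of the kinase Pho85 (0.993). All were higher in P5-EM, like the profile by which they were chosen, by 1.04, 0.86, 0.75, 0.89 and 0.59 on the log2 scale (limma, adjusted p from 0.0152 to 0.0288). The genes closest to PYK2 alone were ZRC1, a vacuolar zinc transporter, FMP41, for a mitochondrial protein, and PHS1 of very long chain fatty acid synthesis (r = 0.995, 0.994 and 0.994), higher in P5-EM by 0.65, 0.95 and 0.88 (adjusted p from 0.0109 to 0.0201, limma). Within the members, PYK2 correlated with ENO2 at r = 0.980 and with ENO1 at 0.959, but with TPI1 at 0.481 and TDH1 at -0.16. The calls of these 8 genes ended without P5 replicate 2 or 3, and those of all but FMP41 also without P5 replicate 1 or P5-EM replicate 2. The 6 arrays fall into 2 strains, so these coefficients mostly carry the difference between strains. All 8 genes were chosen on these same arrays by profiles that were higher in P5-EM. Their strain differences and adjusted p values therefore follow largely from that choice and are no separate support. Coefficients and differences are given as a description.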
